A study of Mus musculus with 4 samples.

Results

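The enzymes that make, the transporter that takes up and the receptors that sense prostanoids were followed through the cells of the mouse left ventricle. The set held 10 genes, 10 of the 31253 genes listed for each library: the cyclooxygenases Ptgs1 and Ptgs2, the terminal synthases Ptgis, Ptges, Ptgds and Tbxas1, the catabolic enzyme Hpgd, the transporter Slco2a1 and the receptors Ptger4 and Ptgir. They were picked by symbol with their levels in capillary, artery and vein endothelial cells (ECs) and mural cells, and their difference between diets, already known. For these genes both the levels across cell classes and the diet differences are therefore given as descriptions, with no test.

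RFP-positive left-ventricular cells were sorted and sequenced with 10x 3′ chemistry in 4 libraries. Of these, 2 were labelled NC (normal diet, 10% of calories from fat) and 2 HFpEF. The HFpEF diet had 60% of calories from fat plus 0.5 mg/ml L-NAME, an inhibitor of nitric oxide synthase, in drinking water. Both diets were given for 20 weeks. By the study's design all donors were male triple-transgenic mice (Sfl/fl/RΔEC or Sfl/+/RΔEC, with floxed Scarb1, which encodes SR-B1, the endothelial driver Cdh5-CreER and the R26-stop-tdTomato reporter) treated with tamoxifen at 7 weeks of age, so every group carried the recombinase, the reporter and a floxed allele. The labels give the diet of each library and not its Scarb1 genotype. The paper's single-cell comparison held both genotypes under each diet, so libraries fed alike may not share a genotype. How many mice a library pooled was not given, so the spread within a diet may mix genotype, animal and preparation, and cannot be told apart into these.

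Prostanoids are short-lived lipid signals made from arachidonic acid. Cyclooxygenases convert it to prostaglandin H2, terminal synthases turn that intermediate into prostacyclin, prostaglandin E2, prostaglandin D2 or thromboxane, and the products act on G-protein-coupled receptors of nearby cells before uptake by the prostaglandin transporter and oxidation by 15-hydroxyprostaglandin dehydrogenase. Endothelial prostacyclin is known for relaxing vascular smooth muscle and restraining platelets, and the prostaglandin E2 receptor EP4, like the prostacyclin receptor IP, raises cAMP.

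The promoters of the 4 members whose levels carry the results below are shown first, each from 250 bases before to 50 bases after the transcript start (RefSeq, GRCm38.p6, the build of mm10), written 5′ to 3′ on the gene's strand. Capitals mark matches to TATAAA, to CACGTG or to CACCC, the last appearing as GGGTG where it lies on the other strand. The cyclic AMP response element TGACGTCA and the AP-1 element TGANTCA were searched on both strands as well and were in none of these 4 windows.

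Ptger4, chr15:5244138-5244437, minus strand: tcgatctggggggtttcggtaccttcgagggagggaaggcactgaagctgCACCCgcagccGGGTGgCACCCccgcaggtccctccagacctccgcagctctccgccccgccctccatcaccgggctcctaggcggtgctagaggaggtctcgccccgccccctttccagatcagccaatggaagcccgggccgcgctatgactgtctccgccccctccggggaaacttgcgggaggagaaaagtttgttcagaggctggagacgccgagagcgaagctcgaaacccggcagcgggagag
Ptgs1, chr2:36230176-36230475, plus strand: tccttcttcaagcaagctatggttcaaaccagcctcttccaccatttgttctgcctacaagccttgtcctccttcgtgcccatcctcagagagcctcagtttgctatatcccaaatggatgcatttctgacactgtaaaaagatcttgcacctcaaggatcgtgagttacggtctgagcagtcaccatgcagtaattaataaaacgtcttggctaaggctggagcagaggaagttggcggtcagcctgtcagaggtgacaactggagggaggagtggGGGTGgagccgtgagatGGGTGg
Ptgs2, chr1:150099781-150100080, plus strand: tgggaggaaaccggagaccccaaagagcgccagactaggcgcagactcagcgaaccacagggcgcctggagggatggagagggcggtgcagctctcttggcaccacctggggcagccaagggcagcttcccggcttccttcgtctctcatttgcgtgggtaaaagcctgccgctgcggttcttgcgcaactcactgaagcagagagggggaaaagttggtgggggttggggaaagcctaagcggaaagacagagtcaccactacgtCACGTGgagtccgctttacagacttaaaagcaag
Slco2a1, chr9:103008237-103008536, plus strand: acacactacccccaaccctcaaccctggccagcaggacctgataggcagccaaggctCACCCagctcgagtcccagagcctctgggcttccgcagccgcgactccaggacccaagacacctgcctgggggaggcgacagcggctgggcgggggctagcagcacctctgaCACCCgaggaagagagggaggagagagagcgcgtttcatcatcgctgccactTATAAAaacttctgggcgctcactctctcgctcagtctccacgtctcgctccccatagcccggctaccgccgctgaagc

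The Ptger4 window held 3 CACCC matches and was 67.0% G or C, against 50.67% in the Ptgs1 window, which held 2. A CACGTG match lay from 17 bases into the Ptgs2 transcript, and a TATAAA match began 29 bases before the Slco2a1 start. Of the 32851 mouse promoters of this length, 57.5% held CACCC on either strand. The shares were 13.6% for TATAAA, 7.15% for CACGTG, 7.81% for TGANTCA and 1.79% for TGACGTCA. Such matches describe the letters and name no bound factor. RefSeq promoters matched 9 of the 10 members, and none was matched for Ptgis.

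After cells with more than 200 genes and under 20% mitochondrial UMIs (unique molecular identifiers, 1 per captured transcript) were kept, 40154 of 41843 cells remained, 5454 to 20882 a library. Depth differed with diet: median UMIs per cell were 3754 and 4127 for NC against 1736.5 and 1619 for HFpEF. The libraries shared 10 to 42 cell barcodes per pair. Scarb1, the targeted gene, was at 116 and 49.4 CPM (counts scaled to a common library total, here after TMM scaling) in capillary ECs of NC 1 and NC 2 and at 121 and 55.4 CPM in those of HFpEF 1 and HFpEF 2. Within each diet the library numbered 2 was the lower, and it was so in artery, vein and mural-like cells too. From its single-cell data the paper reported less Scarb1 in capillary ECs of double-floxed than of single-floxed mice under each diet. The 2 libraries of a diet may therefore differ in genotype. Counts at the 3′ end do not read the floxed exon and the labels name no genotype, so none is assigned here. Clusters were named from marker lists, with the members and related prostanoid genes left out of the clustering. This gave 17473 capillary, 4536 artery, 976 vein, 199 endocardial and 99 lymphatic ECs, 1637 mural-like cells (pericytes and smooth muscle), 131 fibroblasts, 164 B cells, 85 T cells, 72 macrophages and 25 neutrophils, and left 14757 cells unnamed. Capillary-like clusters that led with other genes (Hmox1, hemoglobin, Pth1r) were kept out of the capillary class, which removed 31.9% and 29.96% of capillary-like cells in NC and 42.9% and 56.2% in HFpEF. All markers of each class were higher in it than in the class it was compared with, for instance Vwf at 621 to 1062 CPM in vein against 3.44 to 14.5 CPM in capillary ECs.

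Levels below are CPM, UMIs of a gene scaled to the UMI total of the same class and library. They were summed over cells, so fewer positive cells and less RNA per cell cannot be told apart in a sum, and 1 to 3 UMIs or none are read against the level that 3 UMIs would give. All such limits, and the intervals given for shares of cells, cover counting error only. Because each transcript is counted once at its 3′ end, no level is compared between genes.

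Ptgs1, the constitutive cyclooxygenase COX-1 (chr2:36230426-36252272, plus strand), had its highest levels in vein and endocardial ECs. By number, 2509 of its 4779 UMIs lay in capillary ECs, the largest class. It stood at 261 and 295 CPM in vein ECs of NC and at 241 and 227 CPM in those of HFpEF. In endocardial ECs, the lining of the chamber, it reached 498 and 568 CPM in NC against 334 and 320 CPM in HFpEF. These endocardial sums, here and below, rest on 47 and 45 cells in NC and 19 and 88 in HFpEF. The endocardial, then the vein range lay above the ranges of all other classes without overlap, and endocardial ECs held 1082% to 1111% of the capillary level of their own library. Macrophages, the next in order at a mean of 41.2 CPM, overlapped with capillary ECs, B cells and lymphatic ECs. Here and below, the macrophage sums of NC 1 and HFpEF 1 rest on 3 and 8 cells and the B cell and T cell sums of NC 1 on 9 and 7, under the 10 cells required of a tested sum, so they are weak values.

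In capillary ECs Ptgs1 was at 45.4 and 52.4 CPM in NC against 30.1 and 29.5 CPM in HFpEF. Both HFpEF libraries were below both NC libraries, an order shared by 25.9% of all tested genes, and the ratio of the means was 0.609. The capillary clusters differed in their level. Ptgs1 was highest in the cluster led by Aplnr (70.2 CPM over all libraries) and the cluster led by Aqp1 (54.0 CPM), and lowest in that led by Dnajb1, a heat shock gene (18.8 CPM). The Aqp1-, Aplnr- and Esm1-led clusters made up 75.3% and 73.9% of the capillary ECs in NC but 47.3% and 31.7% in HFpEF. Within clusters, both NC libraries were above both HFpEF libraries in 2 of the 6, below them in 1 and overlapping in 3. The share of all genes in such an order was not computed by cluster. With the 6 clusters weighted equally, an alternative chosen after the data were seen, the ratio was 0.760 (36.7 and 45.4 CPM in NC, then 28.6 and 33.8 CPM in HFpEF).

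Artery ECs and mural-like cells carried little Ptgs1. Artery ECs had 12.9, 15.3, 3.36 and 12.9 CPM in NC 1, NC 2, HFpEF 1 and HFpEF 2, the HFpEF 1 value resting on 4 UMIs, and NC 1 and HFpEF 2 were alike. Mural-like cells had 6.13, 7.86, 2.69 and 7.60 CPM, on 2 to 19 UMIs, and the diets overlapped. The 1 artery cluster that stood higher was led by Cytl1, Mgp and Clu, with 51.2 CPM over 158 cells.

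**Figure D1:**
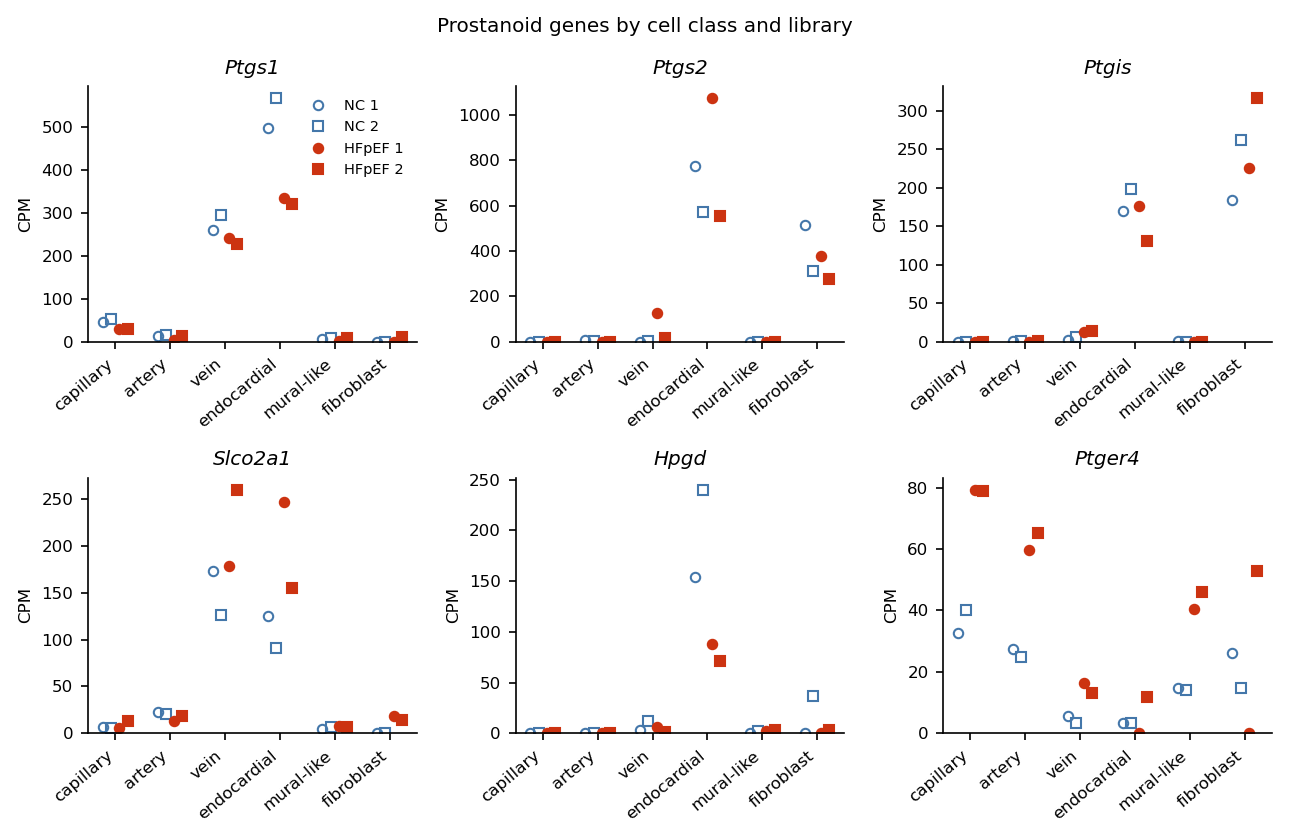
Levels of 6 members in CPM (vertical axes, linear, each with its own scale) in 6 cell classes, 1 point per library (open blue, NC; filled red, HFpEF; circle, replicate 1; square, replicate 2). Ptgs1 and Slco2a1 are high in vein and endocardial ECs, Ptgs2 and Ptgis in endocardial ECs and fibroblasts, and Ptger4 in capillary and artery ECs.

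Ptgs2, the inducible cyclooxygenase COX-2 (chr1:150100031-150108227, plus strand), was almost undetected in capillary ECs and high in the endocardium. Endocardial ECs held 774, 571, 1073 and 553 CPM in NC 1, NC 2, HFpEF 1 and HFpEF 2, on 61 to 241 UMIs, and the diets overlapped. Fibroblasts followed with 512, 314, 377 and 278 CPM, without overlap with endocardial ECs. Macrophages, at 168, 89.4, 295 and 61.5 CPM on 5 to 15 UMIs, overlapped with fibroblasts. The 17473 capillary ECs held 6 Ptgs2 UMIs in 6 cells, whereas the 199 endocardial ECs held 651 in 115 cells, 65.1% of the 1000 Ptgs2 UMIs in all kept cells. Mural-like cells had 1 UMI in all, and lymphatic ECs, B cells and T cells none, which allowed up to 19.3 CPM in the deepest lymphatic library.

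The diet differences of Ptgs2 in artery and vein ECs rested on few cells. In artery ECs 27 UMIs in NC 1 came from 1 cell and 11 of 12 UMIs in NC 2 from another, with none in HFpEF 1 (up to 2.52 CPM allowed) and 2 in HFpEF 2. In vein ECs the values were 0.918 and 3.33 CPM in NC (1 and 3 UMIs) and 129 and 18.7 CPM in HFpEF (39 and 24 UMIs), but 35 of the 39 UMIs in HFpEF 1 sat in 1 cell, and the cell with the most in HFpEF 2 held 9 of 24. Of the artery UMIs, 38 of 41 fell in the Cytl1-led cluster, and of the vein UMIs 56 of 67 fell in the cluster led by Selp, the platelet and leukocyte adhesion receptor of activated veins. The ratios of the HFpEF to the NC mean, 0.031 in artery and 34.8 in vein ECs, include these cells.

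**Figure D2:**
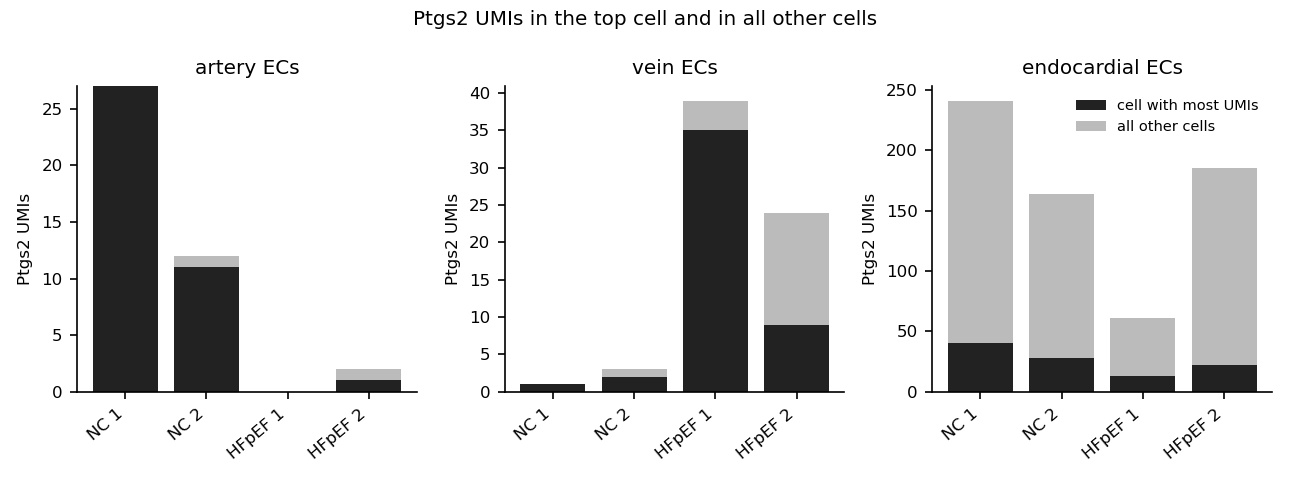
Ptgs2 UMIs (vertical axes, linear, each with its own scale) in artery, vein and endocardial ECs of each library. The dark part of a bar is the single cell with the most UMIs and the grey part all other cells: 1 cell gives 27 of 27 UMIs in artery ECs of NC 1 and 35 of 39 in vein ECs of HFpEF 1, but at most 40 of 241 in endocardial ECs of NC 1.

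Ptgis, prostacyclin synthase (chr2:167191805-167240604, minus strand), shared the sites of Ptgs2. It was at 184, 263, 226 and 317 CPM in fibroblasts and at 170, 198, 176 and 132 CPM in endocardial ECs of NC 1, NC 2, HFpEF 1 and HFpEF 2. These ranges overlapped each other and lay above those of every other class, and the diets overlapped in both. Endocardial ECs held 164 and fibroblasts 152 of the 362 Ptgis UMIs, while capillary ECs held 3 UMIs and mural-like cells 1. Vein ECs had 1.84 and 5.55 CPM in NC against 13.2 and 14.0 CPM in HFpEF, on 2 to 18 UMIs.

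The endocardial class was checked against fibroblast genes, since Ptgis and Ptgs2 were high in both. All 4 endocardial markers were detected, with Npr3 at 897 to 1710 CPM and Cytl1 at 739 to 1337 CPM, and Pecam1 was at 809 to 1112 CPM. Of the 7 fibroblast markers, Dcn reached a mean of 3702 CPM and Lum 737 CPM in these cells, but Col1a1 was at 0 to 17.9 CPM and Col3a1 at 0 to 23.9 CPM. The summed fibroblast list ran from 3208 to 6386 CPM in endocardial ECs and from 6.03 to 9.20 CPM in capillary ECs. The part of fibroblast RNA in the endocardial Ptgs2 and Ptgis levels was not tested. The summed list of 5 vein markers was itself higher in endocardial ECs, at 7972, 8782, 6421 and 6090 CPM in NC 1, NC 2, HFpEF 1 and HFpEF 2, than in vein ECs, at 1617, 1755, 1732 and 2170 CPM. On the log2 marker score used for naming, the larger endocardial cluster exceeded the median of all clusters by 7.33 for vein and by 6.42 for endocardial markers. The order of vein and endocardial ECs in Ptgs1 and Slco2a1 rests on this division, and at a finer resolution most endocardial cells joined the vein class. The class was formed by a cluster of 148 cells led by H19 and Npr3, with 790 CPM of Ptgs2, and a cluster of 51 cells led by Hamp and Postn, with 242 CPM. The Hamp-led cluster gave 6 of 47 and 4 of 45 endocardial cells in NC but 8 of 19 and 33 of 88 in HFpEF. The part of this mix in the endocardial diet differences of any member was not tested.

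Of the remaining synthases, Tbxas1, thromboxane synthase, had its highest levels in macrophages. It was at 33.6, 59.6, 53.6 and 33.5 CPM there in NC 1, NC 2, HFpEF 1 and HFpEF 2, on 1, 10, 2 and 6 UMIs from 3, 24, 8 and 37 cells. No other class reached this range, but the smallest sums were too shallow to exclude it. Neutrophils, with no UMI, allowed up to 44.2 CPM over all libraries, and 1 UMI of Ptgds stood at 18.7 CPM in a lymphatic and 23.9 CPM in a T cell sum. The 19 macrophage UMIs of Tbxas1 came from 72 cells, against 10 in 17473 capillary ECs. Ptges, the inducible prostaglandin E synthase, had 17 UMIs in all kept cells, 11 of them in fibroblasts (3 in NC 2 and 8 in HFpEF 2), and Ptgds, prostaglandin D synthase, did not exceed 3.62 CPM in any of the capillary, artery, vein or mural-like sums. In capillary ECs Ptgds had 20 UMIs in each of NC 1 and HFpEF 1 and 7 and 6 in NC 2 and HFpEF 2. The higher libraries were thus 1 of each diet.

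Slco2a1, the prostaglandin transporter that clears prostaglandins from blood (chr9:102988712-103096002, plus strand), marked vein, endocardial and lymphatic ECs. In vein ECs it was at 174 and 126 CPM in NC against 178 and 260 CPM in HFpEF. Endocardial ECs held 125, 90.5, 246 and 155 CPM in NC 1, NC 2, HFpEF 1 and HFpEF 2, and lymphatic ECs 53.3, 156, 93.7 and 187 CPM. These 3 classes overlapped with each other, and their ranges lay above those of artery (13.45 to 22.2 CPM), capillary (5.12 to 13.1 CPM) and mural-like cells (4.90 to 8.08 CPM). B cells, at 53.7 CPM on 4 UMIs in NC 1, reached into the lymphatic range and had 0 or 1 UMI elsewhere.

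Slco2a1 varied within vein and artery ECs. Among vein clusters it was highest in the cluster led by Selp and Vwf, at 476 CPM over 129 cells. Among artery clusters the Cytl1-led cluster reached 130 CPM over 158 cells, a cluster led by Tmem100 55.5 CPM on 15 UMIs and a cluster led by S100a4 and Clu 45.6 CPM. Vein levels were higher in both HFpEF libraries (ratio of the means 1.46) and artery levels lower in both (13.45 and 17.9 against 22.2 and 20.2 CPM, ratio 0.740). Of all tested genes, 19.7% were in the former order in vein ECs and 20.8% in the latter in artery ECs. In vein ECs the lower HFpEF value and the higher NC value, 178 and 174 CPM, were close. In capillary ECs HFpEF 2 alone stood apart, at 13.1 CPM against 5.98 CPM in HFpEF 1 and 6.725 and 5.12 CPM in NC, and without HFpEF 2 the log2 fold change there went from 0.79 to 0.04.

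Hpgd, 15-hydroxyprostaglandin dehydrogenase, which oxidises imported prostaglandins (chr8:56294585-56321043, plus strand), was found mostly in endocardial ECs (146 of 284 UMIs) and macrophages (90 UMIs). Endocardial ECs had 154 and 240 CPM in NC against 88.0 and 71.8 CPM in HFpEF, and macrophages 202 and 369 CPM in NC against 53.6 and 112 CPM in HFpEF. Both HFpEF libraries were below both NC libraries in each class, on 5 to 69 and 2 to 62 UMIs, but the macrophage values of NC 1 and HFpEF 1 come from 3 and 8 cells. The share of all genes in this order was not computed in these 2 classes. It was 25.9% in capillary, 20.8% in artery and 20.7% in vein ECs and 20.1% in mural-like cells, so nothing is read from the order. The capillary sum held 4 Hpgd UMIs, the artery sum 2 and the vein sum 18, and vein ECs, the class with the highest mean of Slco2a1, carried 1.56 to 12.2 CPM of Hpgd. Slco2a1 had no UMI in macrophages, which allowed up to 16.8 CPM in the deepest library.

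Ptger4, the prostaglandin E2 receptor EP4 (chr15:5206661-5244187, minus strand), was highest among endothelial classes in capillary and artery ECs. In capillary ECs it was at 32.5 and 40.2 CPM in NC against 79.4 and 79.0 CPM in HFpEF. In artery ECs it was at 27.3 and 24.8 CPM in NC against 59.7 and 65.3 CPM in HFpEF. Both HFpEF libraries were above both NC libraries in these classes, with ratios of the means of 2.18 and 2.40. The same order held in mural-like cells (14.7 and 14.1 CPM in NC, then 40.4 and 46.1 CPM in HFpEF) and in vein ECs (5.51 and 3.33 CPM in NC, then 16.5 and 13.2 CPM in HFpEF), the latter on 3 to 17 UMIs. Of all tested genes, 24.8% were in this order in capillary, 20.8% in artery and 19.7% in vein ECs and 20.3% in mural-like cells. The fitted log2 fold changes of Ptger4 were 1.12 in capillary, 1.31 in artery and 1.58 in vein ECs and 1.65 in mural-like cells.

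The Ptger4 difference was also present within the capillary clusters. In all 6 capillary clusters both HFpEF libraries were above both NC libraries, from 53.9 and 60.8 against 18.6 and 29.0 CPM in the Aplnr-led cluster to 93.9 and 89.6 against 65.4 and 63.7 CPM in the Dnajb1-led cluster. The Dnajb1-led cluster had the highest level in each of the 4 libraries and the Aplnr-led cluster the lowest. Weighted equally, the clusters gave 36.8 and 42.8 CPM in NC against 79.0 and 75.1 CPM in HFpEF, a ratio of 1.94. The 6 clusters come from the same 4 libraries, so they are not separate replicates. In the capillary sum 24.8% of all tested genes were higher in both HFpEF libraries, and that share was not computed by cluster. The 14757 cells left unnamed, most of them capillary-like, had 32.0 and 36.3 CPM in NC against 72.7 and 70.5 CPM in HFpEF.

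**Figure D3:**
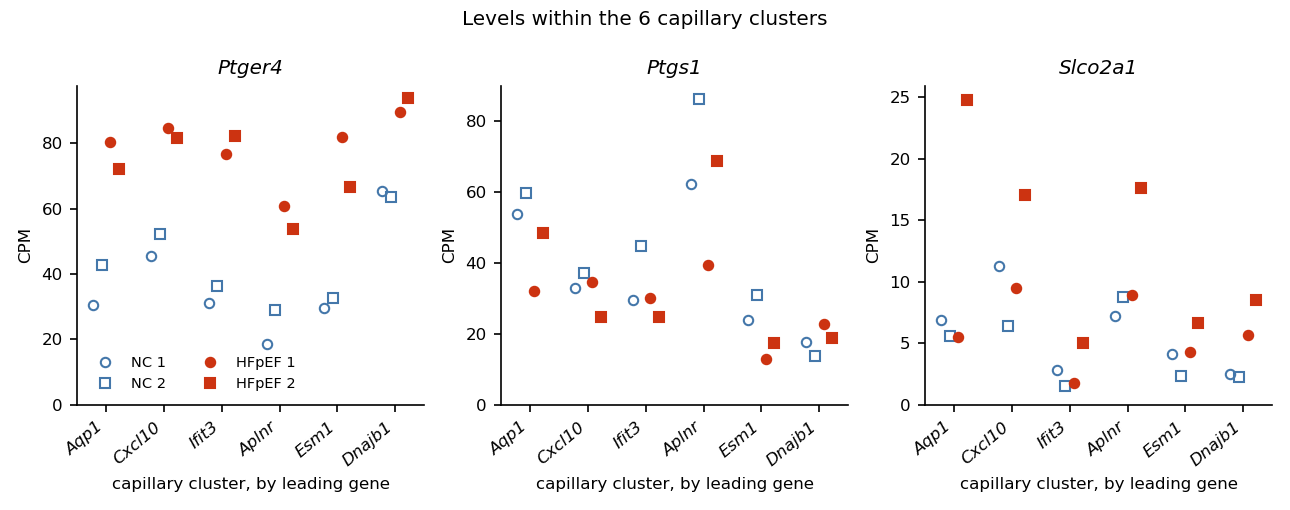
Ptger4, Ptgs1 and Slco2a1 in CPM (vertical axes, linear, each with its own scale) in the 6 capillary clusters, each named by its leading gene, 1 point per library (symbols for diet and replicate as keyed). Ptger4 is higher in both HFpEF libraries in 6 of 6 clusters, whereas the diets overlap in 3 of 6 clusters for Ptgs1 and for Slco2a1. All clusters come from the same libraries, and the share of all genes in such an order was not computed by cluster.

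Because NC cells were deeper, Ptger4 detection was compared after each cell was thinned to 1000 UMIs, which left out 135 of 10159 NC and 1394 of 14463 HFpEF cells of the 4 classes. The share of capillary ECs with a Ptger4 UMI was then 2.76% in NC 1 (95% exact Clopper-Pearson limits 2.27 and 3.32) and 3.71% in NC 2 (3.12 and 4.38). It was 7.60% in HFpEF 1 (6.57 and 8.74) and 7.79% in HFpEF 2 (7.17 and 8.44). Artery ECs showed 2.71% and 1.64% in NC and at least 4.73% in both HFpEF libraries, and mural-like cells 0.763% and 1.14% against 3.95% and 4.53%. Vein ECs showed 0.939% and 0% against 1.79% and 1.94%, and endocardial ECs 1 cell in all 4 libraries, in NC 2 (2.22%). The mural-like and vein shares rest on 43 and 11 cells with a UMI over all libraries. Among artery ECs without a Ptgs1 UMI, the limits of NC 1 (1.67 and 4.18) and HFpEF 1 (3.04 and 7.05) overlapped. Since no class was known to lack Ptger4, the share that free RNA alone would give was not measured. Unthinned capillary shares, 11.8% and 15.1% in NC and 14.9% and 17.5% in HFpEF, were at median depths of 3910.5, 4221, 1935 and 2255.5 UMIs.

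**Figure D4:**
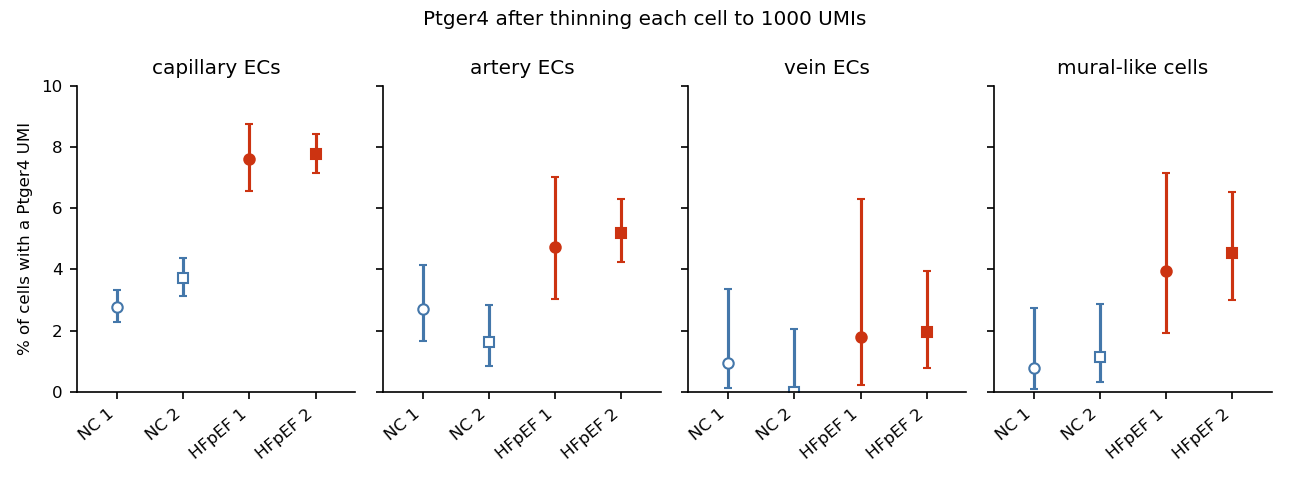
Share of cells with a Ptger4 UMI (vertical axis, percent) in each library after thinning every cell to 1000 UMIs, in 4 cell classes. Points are shares and bars 95% exact binomial intervals, which cover counting error only. In capillary ECs the shares are 2.76% and 3.71% in NC and 7.60% and 7.79% in HFpEF.

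Other measures moved with diet beside Ptger4. The summed level of 13 immediate early and heat shock genes, which respond to tissue dissociation, was 26930 and 23508 CPM in capillary ECs of NC and 33197 and 33566 CPM in those of HFpEF, and it was also higher in both HFpEF libraries in artery, vein and mural-like cells. Depth per cell was lower in HFpEF, as given above. The summed level of 5 cardiomyocyte markers was 60.9 and 39.5 CPM in capillary ECs of NC against 177 and 61.4 CPM in those of HFpEF, and it was higher in both HFpEF libraries in artery (28.2 and 18.0, then 92.5 and 35.9 CPM), vein (17.4 and 7.76, then 52.9 and 25.7 CPM) and mural-like cells (37.4 and 26.05, then 133 and 71.6 CPM). That of 5 erythroid markers, hemoglobin genes among them, was 576 and 374 CPM against 1049 and 3362 CPM in capillary and under 2 CPM in both NC libraries against 451 and 602 CPM in artery ECs. Mural-like cells carried 49.9% to 55.9% of the capillary level of 6 pan-endothelial markers and 35.0% to 58.3% of the capillary level of Ptger4, and B cells carried 54.8% to 59.8% of the former. The part of endothelial RNA in the mural Ptger4 level, and of the stress genes, cardiomyocyte or erythroid RNA or depth in the diet difference, was not tested. In the annotation Ptger4 shares exon sequence with Ttc33 and Gm15937 on the opposite strand, and Ptgs1 with Gm43621.

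Ptger4 UMIs were also counted outside endothelium. T cells (0 to 167 CPM, 21 UMIs) and macrophages (0 to 80.5 CPM, 25 UMIs) overlapped with capillary ECs. Each class overlapped with its neighbour in the order of means down to endocardial ECs (0 to 11.96 CPM). The 6 pan-endothelial markers summed to 1611 to 2416 CPM in T cells and 617 to 1918 CPM in macrophages, against 5097 to 5970 CPM in capillary ECs. The part of endothelial RNA in the Ptger4 counts of T cells and macrophages was not tested. In every library Ptger4 was lower in vein than in capillary ECs (8.28% to 20.8% of the capillary level), whereas Ptgs1 was 563% to 802% of it. The classes rich in Ptgs1 were thus those poorest in Ptger4 among blood endothelium.

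Ptgir, the prostacyclin receptor IP (chr7:16906490-16910905, plus strand), was found chiefly in mural-like cells, at 16.5, 15.7, 17.5 and 13.4 CPM in NC 1, NC 2, HFpEF 1 and HFpEF 2. The diets overlapped, on 13 to 38 UMIs. These cells held 108 of the 171 Ptgir UMIs, and their range overlapped that of fibroblasts (7.03 to 21.9 CPM on 1 to 3 UMIs) but lay above those of capillary (0.115 to 1.27 CPM) and artery ECs (0 to 0.841 CPM). Vein ECs held no Ptgir UMI, which allowed up to 2.335 CPM in HFpEF 2.

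Among the 10 members, 4 passed the filter on low counts in capillary ECs, 4 in artery ECs, 5 in vein ECs and 4 in mural-like cells. Of these, Ptger4 was higher in both HFpEF libraries in capillary ECs, where 24.8% of all tested genes were, and Ptgs1 lower, as were 25.9% of genes. Among tested members, Ptger4 was the only one higher in artery ECs (20.8% of genes) and in mural-like cells (20.3% of genes), where 20.1% of genes and no member tested were lower. In vein ECs Ptger4, Ptgs2, Ptgis and Slco2a1 were higher (19.7% of genes) and Ptgs1 lower (20.7% of genes). In artery ECs Ptgs2 and Slco2a1 were lower (20.8% of genes). The members were chosen with this contrast known, so nothing is read from these counts.

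Detection of members in the same cell was compared after thinning. In capillary ECs 3.27%, 3.37%, 3.08% and 6.28% of cells with Ptgs1 also had Ptger4 in NC 1, NC 2, HFpEF 1 and HFpEF 2, against 2.74%, 3.73%, 7.73% and 7.83% of those without, and the intervals overlapped in each library. Slco2a1 was found in 6.15% (1.70 to 15.0) of capillary ECs with Ptgs1 in HFpEF 1, 4 of 65 cells, against 0.478% (0.239 to 0.853) of those without. The intervals did not meet in that library and overlapped in the other 3. In vein ECs the shares with Slco2a1 were 13.6%, 9.76%, 7.41% and 15.4% among cells with Ptgs1 and 13.0%, 10.3%, 18.8% and 19.7% among those without, with overlapping intervals. In endocardial ECs 7 of 15, 8 of 20, 2 of 5 and 11 of 20 cells with Ptgs1 had Ptgs2, and the intervals overlapped those of cells without Ptgs1, in HFpEF 2 narrowly (31.5% to 76.9% against 15.3% to 37.0%).

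The genes whose levels were most like a member's over 37 class and library sums of 11 classes, by Pearson's r of log2(CPM + 10) among 6005 genes, were given as descriptions, since sums of 1 library share its depth and cells. For Ptgs1 they were Vwf, the endothelial von Willebrand factor (r = 0.861), Slc18a2 (0.794) and Tmem108 (0.7935). For Ptgs2 they were Plxnc1 (0.930), Cyp1b1 (0.927) and Ptgis (0.916), and for Ptgis they were Lum (0.990), Cyp1b1 (0.983) and Pdgfrl (0.975). Slco2a1 was closest to Wipf3 (0.909), Pgm5 (0.870) and Plvap, of fenestrated and venous endothelium (0.868), and Hpgd to Ctsh (0.806), Epha7 (0.790) and Npr3 (0.789). For Ptger4 the best match, Rinl, reached 0.758, and none of its 3 genes was kept when 1 CPM was added in place of 10, whereas all 3 of Ptgs2 were.

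The rest of the pathway was tested between diets. The list held 25 related prostanoid genes outside the members: phospholipases, other synthases and reductases, the exporter Abcc4 and the other receptors. Like the other gene lists below, it was chosen with earlier results of these data known, so its test is not independent of them. Of these genes, 14 could be tested in capillary ECs, 11 in artery ECs, 7 in vein ECs and 12 in mural-like cells. By edgeR's quasi-likelihood test on library sums, with adjustment over all genes of a class, 1 gene was called in 1 class: Ptges3, a co-chaperone of Hsp90 that also has cytosolic prostaglandin E synthase activity, rose in mural-like cells of HFpEF (log2 fold change 0.82, SE 0.15, adjusted p = 0.0106). It was at 167 and 172 CPM in NC against 254 and 326 CPM in HFpEF, higher in 2 of 2 HFpEF libraries. Of all genes tested, edgeR called 0.652% in mural-like cells, 0.161% in vein, 0.136% in artery and 0.00824% in capillary ECs, and DESeq2 0.168%, 0.112%, 0.224% and 1.76%. An unadjusted edgeR p under 0.05 was reached by 10.6%, 9.37%, 10.6% and 18.8% in the same order.

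Ptges3 was also 1 of the 3 related genes named for their mean CPM in capillary ECs, where it was at 151 and 146 CPM in NC against 236 and 279 CPM in HFpEF. In capillary ECs its edgeR adjusted p was 0.0824 (log2 fold change 0.80, SE 0.11), in artery ECs 0.0872 (0.69, SE 0.13) and in vein ECs 0.365 (0.60, SE 0.21). Over the alternative settings its adjusted p ran from 6.67e-06 to 0.474 in capillary ECs and from 4.34e-05 to 0.095 in mural-like cells, where it was called in 11 of 12 and lost its call without HFpEF 2 (0.095). The summed immediate early and heat shock genes were likewise higher in mural-like cells of HFpEF (28573 and 26605 CPM in NC, 35831 and 33799 CPM in HFpEF), and their part in the Ptges3 difference was not tested. Mural-like cells also carried 49.9% to 55.9% of the capillary level of pan-endothelial markers. The part of endothelial RNA in the mural Ptges3 difference was not tested. Cells left out as likely doublets were 16.7% of HFpEF 2 and 4.36% to 5.7% of the other libraries. Leaving them out took the mural-like cells of HFpEF 2 from 714 to 512. Beyond that alternative, the part of doublets in the Ptges3 difference was not tested. Whether the change of Ptges3 differed between classes was not tested. The other 2 genes named by that rule were Akr1b3, an aldose reductase with prostaglandin F synthase activity (48.9, 47.9, 49.6 and 51.1 CPM in NC 1, NC 2, HFpEF 1 and HFpEF 2), and Ptgfrn, a membrane protein that lowers ligand binding by the prostaglandin F receptor (41.5, 35.3, 36.4 and 42.5 CPM). Their diets overlapped and neither passed the test.

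No related gene was called by edgeR in capillary, artery or vein ECs, where 5, 2 and 2 had an unadjusted p under 0.05 and DESeq2 called 1, 1 and 0, each time Ptges3. The median log2 fold change of the related genes tested was -0.14 in capillary, -0.05 in artery, 0.15 in vein and -0.15 in mural-like cells, against medians of all genes between -0.0063 and -0.0006. The other receptors, named here after their values were seen, were scarce: Ptger2, Ptger3 and Ptgdr had no UMI in capillary, artery or vein ECs, and Ptger1 had 17, 10, 3 and 14 UMIs in capillary ECs of NC 1, NC 2, HFpEF 1 and HFpEF 2. The thromboxane receptor gene Tbxa2r was at 16.4, 26.7, 17.8 and 17.1 CPM in capillary ECs of NC 1, NC 2, HFpEF 1 and HFpEF 2 and was not called.

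**Figure D5:**
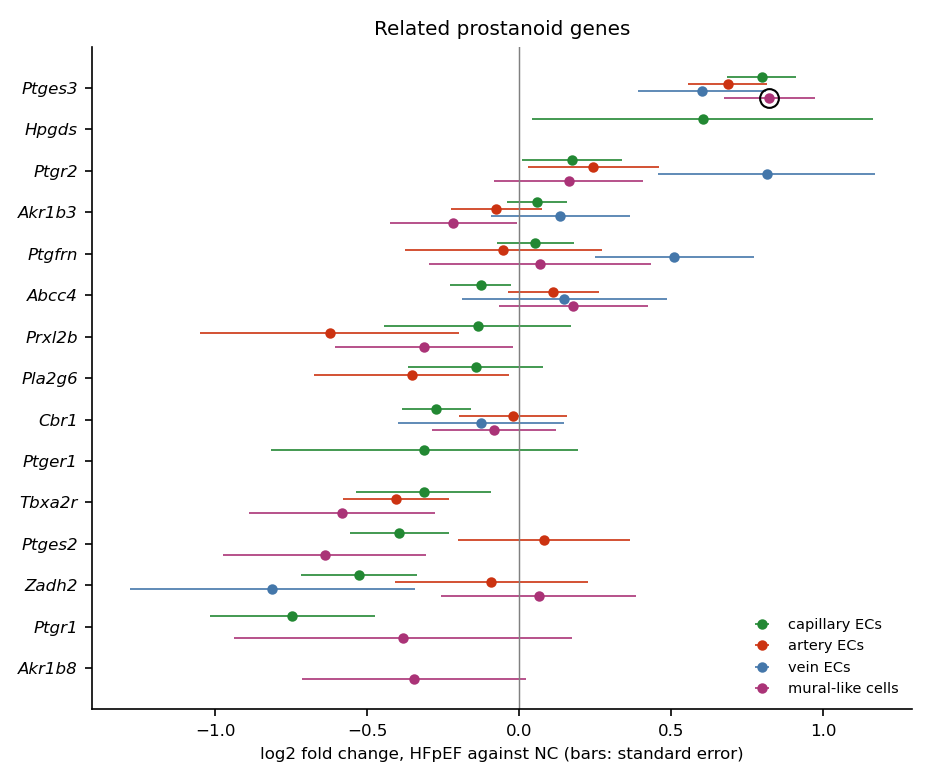
Log2 fold change (HFpEF against NC; horizontal axis) of each related prostanoid gene that passed the filter on low counts, by cell class (colour). Points are edgeR estimates, bars their standard errors with 2 libraries a diet, and the black ring marks the 1 call, Ptges3 in mural-like cells (0.82).

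Leukotriene and other eicosanoid genes, 17 in all, gave no edgeR call in the 4 classes, with 9, 7, 7 and 7 tested in capillary, artery, vein and mural-like sums, and DESeq2 gave none either. The unadjusted edgeR p was under 0.05 for 4, 0, 1 and 1 of them, and their median log2 fold changes were -0.01, -0.09, -0.13 and 0.12. Of 12 genes that respond to cAMP, the second messenger of EP4 and IP, 11, 11, 10 and 10 were tested and edgeR called none. Unadjusted p was under 0.05 for 5, 4, 3 and 3, of which 5, 4, 2 and 2 were higher in HFpEF, and the medians of the list were 0.31, 0.25, -0.07 and 0.09. DESeq2, whose calls are named here after they were seen, gave Nr4a3, Pde4b and Sik1 in capillary ECs and Sik1 in artery ECs, and none in vein ECs or mural-like cells. Sik1, a kinase induced by cAMP, was at 66.2 and 61.4 TMM-scaled CPM in capillary ECs of NC and 118 and 133 in those of HFpEF, with an edgeR adjusted p of 0.0709. The summed immediate early and heat shock genes given above moved in the same direction in capillary and artery ECs, and their part was not tested. Fos is in both lists.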

How the data were processed

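Single-cell RNA sequencing of sorted left-ventricular cells was analysed in 2 NC and 2 HFpEF libraries of 5769 to 21685 deposited cells and 11163876 to 48003732 UMIs. The deposited values were UMI counts per gene and cell, which the authors made with Cell Ranger 5.0.1 on mm10 after trimming with fastp. The authors also downsampled mapped reads per cell between samples before aggregating the matrices. The 10 members and all gene lists were chosen with earlier results of these data known.

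Cells with more than 200 genes and under 20% mitochondrial UMIs were clustered without the 35 member and related genes. Components and neighbours came from scikit-learn 1.9.0 and Louvain clusters from igraph 0.11.9 (2000 variable genes, 10 components, 20 neighbours, resolution 0.8). Clusters of at least 300 cells that passed the marker threshold of a class other than capillary were split again. Clusters were named from marker lists, with thresholds set on the data, and those led by markers of another class stayed unnamed. Scrublet's automatic threshold, run in scanpy 1.11.5, called 0 cells, so doublets were removed only as an alternative. For shares, cells were thinned to 1000 UMIs.

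Counts were summed per class and library (at least 10 cells) and tested with edgeR 4.0.16 in R 4.3.3 (quasi-likelihood, TMM, filter on low counts, Benjamini-Hochberg adjustment over all genes of a class). The test was fitted within each class without a replicate term, and standard errors were the log2 fold change divided by the square root of F. DESeq2 1.42.0 was an alternative. Named beside the members were related genes called in any class and the 3 with the highest mean CPM in capillary ECs. With nothing to say that libraries came from separate animals, p-values measure only the spread between these samples. On simulated counts, changes of 2 on the log2 scale were recovered for 95.5%, 97.5%, 94.5% and 97% of 200 genes in capillary, artery, vein and mural-like sums, and changes of 1 for 78.5%, 71%, 24% and 52.5%. False calls were 21 of 212, 20 of 215, 8 of 197 and 4 of 198 calls for changes of 2, and 24 of 181, 15 of 157, 1 of 49 and 10 of 115 for changes of 1. In capillary and artery sums at both sizes, and in mural-like sums for changes of 1, they were a larger share than the call threshold of 0.05. The changed genes were drawn only from those above a minimum total count. Ptger4 and Ptgis in vein ECs, with 31 and 29 UMIs, did not reach it, so recovery at such counts is not shown.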

Additional observations from a re-analysis of the deposited data

Results flagged for a closer look

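The diet difference of Ptgs2 ran in opposite directions in vein and artery ECs. The HFpEF mean was 34.8 times the NC mean in vein ECs and 0.031 times in artery ECs, with every library of 1 diet on the same side in each class. Of all tested genes, 19.7% were higher in both HFpEF libraries in vein ECs and 20.8% lower in both in artery ECs, so nothing is read from the order. The difference between the classes was not tested. In vein ECs of HFpEF 1 a single cell held 35 of 39 Ptgs2 UMIs, and in artery ECs of NC 1 a single cell held 27 of 27. The vein log2 fold change was 4.54, 3.10 to 5.93 with a library left out and 0.04 at a resolution of 1.2, where most endocardial cells joined the vein class.

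Slco2a1 also differed in direction, with an HFpEF to NC ratio of 1.46 in vein ECs and 0.740 in artery ECs. The shares of all genes in these orders were again 19.7% and 20.8%. The difference between the classes was not tested. The vein libraries nearest to each other were HFpEF 1 at 178 CPM and NC 1 at 174 CPM.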

How the results depend on the processing

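The number of genes called between diets by edgeR depended on the setting more than the members' direction did. In capillary ECs, 1 gene was called, against 600 with no filter on low counts, 214 by DESeq2, 14 without likely doublets and 0 to 168 with a library left out. In artery ECs the count was 14, against 220 with no filter, 23 by DESeq2, 2 without cells over 1% hemoglobin, 6 with cells gated by markers, 9 at a resolution of 1.2 and 5 to 109 with a library left out. In vein ECs it was 13, against 118 with no filter, 21 with cells of at least 1000 UMIs, 35 without doublets, 33 with the gate, 88 at a resolution of 1.2 and 0 to 92 with a library left out. In mural-like cells it was 66, against 188 with no filter, 17 by DESeq2, 31 with the gate and 109 to 159 with a library left out. With the replicate block the counts were 31, 177, 61 and 110 in capillary, artery, vein and mural-like sums. Over all genes, libraries of the same number did not deviate together (correlations 0.0332, 0.017, -0.0203 and 0.01), and the main test did not take the numbers as pairs. Scarb1 was lower in the library numbered 2 under each diet, as given above. Correlations over all genes cannot show whether the numbers mark genotype, and this was not tested.

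Among related genes, 1 was called in capillary and artery ECs with no filter and by DESeq2, in artery ECs with the replicate block and in vein ECs at a resolution of 1.2. With a library left out, 0 to 1 were called in each class, and Ptges3 in mural-like cells lost its call without HFpEF 2. The replicate block gave 0 related calls in capillary and vein ECs and 1 in mural-like cells.

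The log2 fold change of Ptger4 stayed positive, at 0.95 to 1.28 over 15 settings in capillary ECs, 1.18 to 1.37 in artery ECs, 1.33 to 1.69 in mural-like cells and 0.37 to 2.31 in vein ECs. That of Ptgs1 in capillary ECs ran from -0.82 to -0.40. Over 225 alternative values of 17 member differences, 187 moved by less than the spread, 33 moved further and 5 changed sign by more than the spread: Ptgds in capillary ECs without HFpEF 1 (-1.46, against 2.24 without HFpEF 2), Slco2a1 in artery ECs with the gate (0.23), Ptgis in vein ECs at a resolution of 1.2 (-0.74), and Ptgir in mural-like cells without HFpEF 2 (0.18, against -0.25 without HFpEF 1) and as a mean of cells (0.15). Within the spread, Ptgir (0.09 with the gate), Ptgs1 (up to 0.11) and Slco2a1 (-0.002 without doublets) also crossed 0 in mural-like cells. At a resolution of 1.2, where most endocardial cells joined the vein class, Ptgs2 in vein ECs went from 4.54 to 0.04. Keeping all capillary-like clusters and weighting the capillary clusters equally were added after the data were seen, and the other alternatives were not. Low counts limited what could be said of Ptges, Ptgds and Tbxas1, which had 17, 85 and 45 UMIs in all.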
